A study of Homo sapiens with 8 samples.

Results

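The kallikrein genes form the largest run of serine protease genes in the human genome, side by side on the long arm of chromosome 19. The peaks described here are those in the window chr19:50800000-51100000 (hg38), or those whose nearest gene was KLK1, KLK15, KLK3, KLK2, KLK4, KLK5, KLK6, KLK7, KLK10 or KLK11 within 50 kb of the transcription start site (TSS). This rule gave 49 of the 125713 peaks of 4 deposited lists, and these merged into 22 of 61118 regions. All 49 lay inside the coordinate window, so the gene names added none.

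The peaks come from chromatin immunoprecipitation of mTOR, the growth-regulating kinase, in LNCaP, an established androgen-responsive human prostate cancer line. Cells carried a short-hairpin vector that was empty (shEV) or directed against FoxA1 (shFoxA1), a pioneer factor that opens chromatin for the androgen receptor. All cells were first kept for 48 h in 2% charcoal-stripped serum, which removes steroids, and then received the vehicle EtOH (0.1%) or the synthetic androgen R1881 (10 nM) for 24 h. Each of the 4 combinations is 1 immunoprecipitated library, and the 4 input libraries were not analysed here. The labels do not say whether a hairpin line is a clone or a pool. With 1 library per group there is no replicate check, and no p-value is given for any difference.

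In the normal prostate the androgen receptor drives KLK3 and KLK2 in luminal cells, and their products are secreted into seminal fluid. KLK3 encodes prostate-specific antigen, which liquefies the seminal clot, and KLK2 encodes a trypsin-like protease that can activate it. KLK3 is a textbook androgen receptor target, with a receptor element in its promoter and a strong enhancer several kilobases upstream. Farther along the cluster, KLK5, KLK6 and KLK7 are best known from skin and other epithelia, or from the nervous system in the case of KLK6.

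The lists are thresholded calls and hold no read totals, so the depth of the libraries is unknown. They differ in length, from 24948 peaks with EtOH and 26074 with R1881 in shEV to 35121 and 39570 in shFoxA1 on chromosomes 1 to 22, X and Y. Where values of all 4 lists follow each other, shEV comes before shFoxA1 and EtOH before R1881. A peak missing from a list is one that was not called, which is not the same as mTOR being absent. Peak scores are the authors' and are ranked here only within a list, as the percentage of that list's peaks with a lower score. mTOR binding says nothing of RNA levels, so neither the FoxA1 knockdown nor the expression of the kallikreins or of prostate markers was measured.

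The promoter sequences of KLK2 and KLK3 are shown first, because the KLK2 promoter was the only promoter of a member gene to carry an mTOR peak and the KLK3 promoter, which resembles it, carried none. The KLK2 sequence is the part of that peak covered by the promoter table, chr19:50873189-50873362 (GRCh38.p14, plus strand), from 250 to 77 bases before the RefSeq start. The KLK3 sequence is the stretch of 250 bases before its start, chr19:50854665-50854914 (plus strand). Capitals mark the 15 letters in each that best match the androgen response element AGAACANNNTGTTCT, an inverted repeat of the hexamer AGAACA.
KLK2: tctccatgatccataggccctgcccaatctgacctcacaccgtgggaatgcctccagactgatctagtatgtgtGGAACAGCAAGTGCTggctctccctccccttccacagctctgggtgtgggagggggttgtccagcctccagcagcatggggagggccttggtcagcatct
KLK3: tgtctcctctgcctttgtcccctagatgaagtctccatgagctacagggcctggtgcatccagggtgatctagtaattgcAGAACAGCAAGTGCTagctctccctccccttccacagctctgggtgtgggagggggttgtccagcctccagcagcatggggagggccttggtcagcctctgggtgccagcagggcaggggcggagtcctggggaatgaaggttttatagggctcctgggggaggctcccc

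The KLK3 stretch matched 10 of the 12 fixed letters of the element and the KLK2 stretch matched 9. Of 34943 promoter stretches of the same 250 bases in RefSeq, 1.19% held a match of at least 10 letters and 9.18% one of at least 9. Counted from the gene start, the element lay at -170 to -156 in KLK3 and at -176 to -162 in KLK2. They differed by the single substitution A1G, counted from the first letter of the element, with the KLK3 base first. Laid on each other without gaps, the promoters were equal at 97 of the 100 letters from the element onward, but at only 27 of the 74 letters before it. The sources used here do not say how reads were placed between these similar stretches.

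An exact copy of the hexamer AGAACA, read on both strands, was found in the KLK3 stretch and not in the KLK2 stretch; 12.4% of all promoter stretches hold it, and each copy inside a full element is also counted as a hexamer. The full element without mismatches, which is its own reverse complement, was in neither. The forkhead motifs TGTTTAC and TGTTTGC, searched on both strands because FoxA1 is the protein the hairpin targets, were also in neither; 2.98% and 3.24% of promoter stretches hold them. The stretches of KLK15, KLK4, KLK5, KLK6, KLK7, KLK10 and KLK11 held none of these motifs. A match is a description of letters, and the absence of one says nothing about a factor.

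The KLK2 promoter peak was called in shFoxA1 R1881 alone. It spanned chr19:50872976-50873362, was centred -264 bp from the TSS in the authors' annotation and had a score of 74, above 56.4% of its list. The nearest peak lay 28076 bp away in shEV EtOH, 16006 bp in shEV R1881 and 16064 bp in the other shFoxA1 list, so no weak neighbour was called there in the other lists. Promoter windows from 250 bases before to 50 after a start carried a peak in 8.36% of cases with EtOH and 7.64% with R1881 in shEV, and 17.2% and 16.4% in shFoxA1. Against that background, 1 promoter in 1 list is no excess for the cluster. No other peak had KLK2 as its nearest gene.

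**Figure D1:**
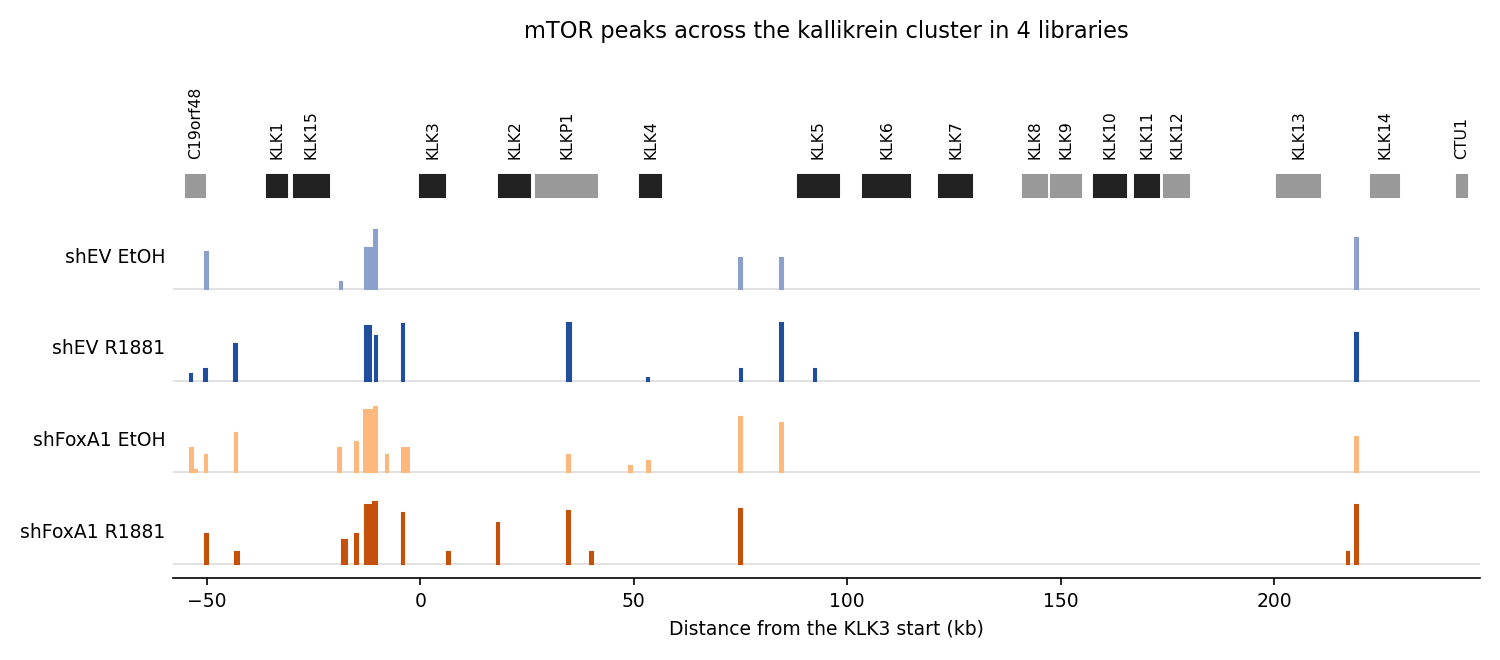
Positions of the 49 kallikrein peaks along the cluster, in kb from the KLK3 start, with 1 row per library; bar height is the rank of the peak within its own list and narrow peaks are widened to stay visible. Black boxes are member genes and grey boxes other genes. Each row has at least 3 peaks between KLK1 and KLK3, the KLK2 start has a bar in the shFoxA1 R1881 row alone, and KLK6 to KLK12 have none.

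A group of regions lay upstream of KLK3, within or at the end of a long noncoding RNA gene whose RefSeq alias is KLK3e (chr19:50830530-50851143). Across KLK1 and on to the start of KLK3, 35.8 kb, there were 7 regions with 3 peaks with EtOH and 3 with R1881 in shEV, and 6 and 5 in shFoxA1. The map of peaks along the cluster shows this group just left of KLK3 in every library. KLK3 itself, chr19:50854915-50860764, had no peak inside the gene in any list. The stretch on the other side of KLK1, 19.1 kb to the left edge of the window, held 4 regions with 1 peak with EtOH and 3 with R1881 in shEV, and 4 and 2 in shFoxA1.

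A pair of neighbouring regions in this stretch was called in all 4 libraries. The one nearer to KLK3 (chr19:50843875-50844900) lay about 10 kb upstream, at distances of -10535 to -10366 bp, in intron 2 of 2 of the noncoding RNA and in an L1PBa repeat, a LINE retrotransposon. Its scores were 158 with EtOH and 85 with R1881 in shEV, and 297 and 186 in shFoxA1. These exceeded 82.8%, 62.5%, 92.4% and 87.0% of the respective lists, so the peak stood in the upper part of each list. It was the highest-scoring kallikrein peak in 3 of the 4 lists, the exception being shEV R1881, where peaks in KLKP1 and near KLK5 (146 each) and at the KLK3 enhancer (135) scored higher than both of the pair.

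Its neighbour (chr19:50841682-50843667), assigned to KLK15, was the widest region of the cluster at 1986 bp. KLK15 encodes a trypsin-like kallikrein that can activate the KLK3 product in the test tube. The scores here were 76 with EtOH and 125 with R1881 in shEV, and 211 and 153 in shFoxA1. All of its peaks were annotated to repeats, an AluSc8 element in shEV EtOH and L1PBa in the others. How uniquely reads map to these repeats was not assessed.

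Closer to KLK3, a region with peaks centred -4031 to -3394 bp from the TSS was present in every list except shEV EtOH. The known KLK3 enhancer lies in this stretch, and the region ran from -4306 to -2548 bp from the gene start (chr19:50850609-50852367). In shEV R1881 the peak was 410 bp wide, centred -4031 bp from the TSS, with a score of 135, above 79.6% of its list, and was annotated to an LTR40a repeat. In shFoxA1 R1881 it was 617 bp wide, centred at -3998 bp, with a score of 102, above 71.0%.
In shFoxA1 EtOH a broader and lower-ranking peak of 1692 bp was centred at -3394 bp, with a score of 49, above 32.3% of its list. In shEV EtOH the nearest called peak was 5780 bp from the shEV R1881 peak. The enhancer region was therefore called with R1881 in both hairpin lines, and without R1881 only in the line with the FoxA1 hairpin. Each of these calls depended on the processing. The shEV R1881 peak is lost when peaks annotated to repeats are left out. Both shFoxA1 peaks, with EtOH and with R1881, are lost when each list is limited to its 10000 highest-scoring peaks. Only the shEV R1881 peak remains under that limit.

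Other peaks around KLK3 and KLK15 were called in fewer lists. One upstream of KLK3 at -7774 bp, in an AluSq repeat, was called in shFoxA1 EtOH (score 42). One 6678 bp downstream of the KLK3 start, just past the transcript end, was called in shFoxA1 R1881 (chr19:50861386-50861801, score 34). A peak upstream of KLK15, at -8481 and -8472 bp, was called in both shFoxA1 lists, with scores of 58 and 57 in EtOH and R1881, and in neither shEV list. Of all regions, 6.91% had that pattern.

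Nearer to KLK15, at -4805 to -4576 bp, a GC-rich region (chr19:50835778-50836519) had peaks in both EtOH lists and neither R1881 list. It was 1 of the 22 regions, 4.55%, where 3.21% of all regions had this pattern. Its scores were 27 in shEV EtOH and 49 in shFoxA1 EtOH, above 7.13% and 32.3% of the lists. In shFoxA1 R1881 a separate peak with a score of 49 began 128 bp past the end of the shEV EtOH peak and 227 bp past that of the shFoxA1 EtOH peak. In shFoxA1 the peaks of the EtOH and R1881 lists thus lay next to each other without overlapping, whereas in shEV R1881 the nearest peak lay 5515 bp away.

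Downstream of KLK2, the transcribed pseudogene KLKP1 had the same presence as the KLK3 enhancer region. A region in its intron 3 of 4 (chr19:50889207-50890107), outside any annotated repeat, was called in all lists but shEV EtOH. The score with R1881 was 146 in shEV and 112 in shFoxA1, above 81.4% and 74.3% of the lists, and that in shFoxA1 EtOH was 42, above 23.1%. With the enhancer region it ranked higher in both R1881 lists than in the shFoxA1 EtOH list, although ranks in lists of different lengths measure no change. The region near LINC01869, called in the same lists, went the other way. It ranked above 55.3% of the list in shFoxA1 EtOH, 50.1% in shEV R1881 and 14.5% in shFoxA1 R1881. A further KLKP1 peak, with a score of 34, was called in shFoxA1 R1881.

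KLK4, which encodes a protease also needed for tooth enamel, had peaks in all 4 lists: 1 with EtOH and 2 with R1881 in shEV, and 3 and 1 in shFoxA1. The one common to all lay upstream, at -19270 to -19121 bp (chr19:50929627-50930164), with scores of 58, 34, 134 and 122 in that order. It overlapped an AluSx1 repeat in the annotation of 3 lists. Inside the gene, a weak region in the last intron and exon 4 of 5 was called in shEV R1881 (score 20) and shFoxA1 EtOH (score 34). A peak in an AluYf1 repeat 6584 bp from the start was called in shFoxA1 EtOH with a score of 27.

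KLK5, which encodes a skin protease of the shedding layer, had 1 peak with EtOH and 2 with R1881 in shEV, and 1 and 0 in shFoxA1. The region at 13504 to 13587 bp from its start, in an MLT1L long terminal repeat (chr19:50939276-50939722), had scores of 58 in shEV EtOH, 146 in shEV R1881 and 103 in shFoxA1 EtOH. It was the only region of the cluster called in all lists but shFoxA1 R1881, where the nearest peak was 9229 to 9324 bp away. Over the genome 1.63% of regions had that pattern. An intronic KLK5 peak in an L2a repeat, with a score of 34, was called in shEV R1881.

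No peak was assigned to KLK1, which encodes the kinin-releasing tissue kallikrein, or to KLK6, KLK7, KLK10 and KLK11, in any list. Nor did any peak touch the 82.0 kb from the end of KLK5 to the end of KLK12. The longest stretch without a peak was 134 kb with EtOH and 126 kb with R1881 in shEV, and 134 kb and 142 kb in shFoxA1. Gaps at least that long made up 25.3%, 25.2%, 16.8% and 12.9% of all gaps between neighbouring peaks in those lists. An empty stretch of this length is thus common over the genome. Chromosome 19 is denser in peaks, and its gaps were not counted separately. In each list 4 of the 10 member genes had an assigned peak. Those were KLK15, KLK3, KLK4 and KLK5, with KLK2 in place of KLK5 in shFoxA1 R1881. Coding genes at large had one in 36.5% of cases with EtOH and 37.5% with R1881 in shEV, and 49.1% and 51.6% in shFoxA1, so the member genes were near the background.

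**Figure D2:**
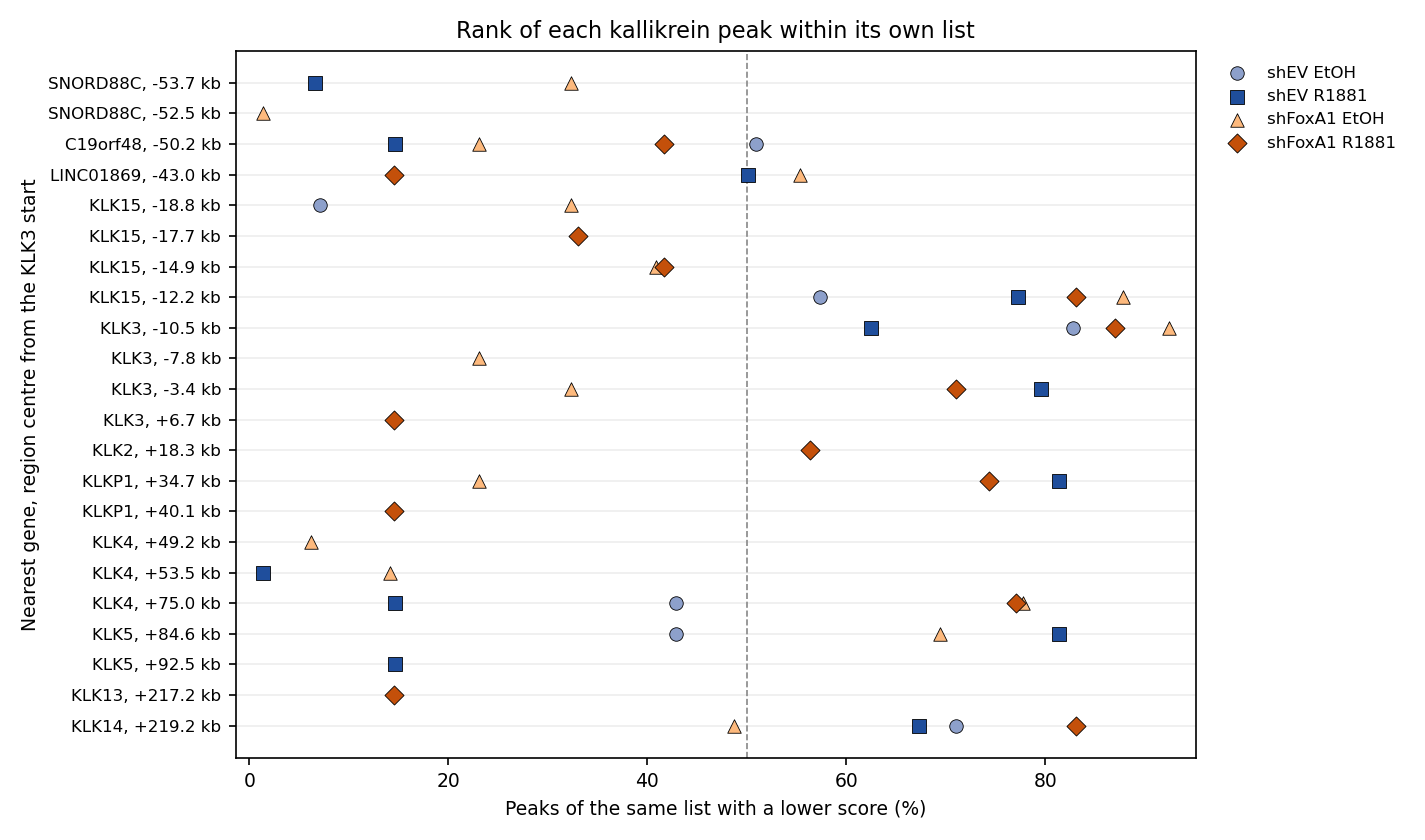
Rank of every kallikrein peak within its own list (horizontal axis, percentage of the list's peaks with a lower score) for the 22 merged regions from left to right along the chromosome (vertical axis, nearest gene and region centre in kb from the KLK3 start). Each symbol is 1 peak and the dashed line marks the middle of a list; the adjoining pair of regions upstream of KLK3 is right of the line in all 4 lists.

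Of the other kallikreins, KLK8, KLK9 and KLK12 had no peak, KLK13 had 1 peak in shFoxA1 R1881 (score 34) and KLK14 had 1 in every list. KLK14 encodes a trypsin-like protease of skin. Its region, 8651 to 8769 bp from the start in an L1MA9 repeat (chr19:51073828-51074482), had scores of 105 with EtOH and 95 with R1881 in shEV, and 66 and 153 in shFoxA1. On the other flank the promoter of C19orf48 (chr19:50804461-50805068) was marked in all lists, with scores of 67, 34, 42 and 57 in the same order. A GC-rich region near LINC01869 (chr19:50811463-50812372) was called in all lists but shEV EtOH, with a score of 67 in shEV R1881 and, in shFoxA1, of 75 with EtOH and 34 with R1881. The small nucleolar RNA gene SNORD88C had a region in shEV R1881 (score 27) and shFoxA1 EtOH (score 49), and a promoter peak in shFoxA1 EtOH (score 21).

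At the left edge of the window, the last peak outside was 1 near GPR32 in both EtOH lists (score 42 in each) and 1 near SNORD88B in the R1881 lists (score 95 in shEV and 102 in shFoxA1). The first peaks inside had scores of 67 with EtOH and 27 with R1881 in shEV, and 49 and 57 in shFoxA1. At the right edge the KLK14 region was the last inside in all lists, and the first peaks outside, with scores of 27, 76, 21 and 20 in the same order, lay near CD33, VSIG10L, VSIG10L and SIGLEC9.

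The window of 300 kb held 7 peaks with EtOH and 12 with R1881 in shEV, and 16 and 14 in shFoxA1. The median bin of the same length over the genome held 2, 2, 3 and 3. At least as many peaks were found in 6.43% of 10302 bins with EtOH and 1.28% with R1881 in shEV, and 1.19% and 2.29% in shFoxA1. Chromosome 19 is rich in genes and in peaks, and among its 196 bins the shares were 40.8%, 17.9%, 18.9% and 27.6%. The cluster was thus dense for the genome but not unusual for its chromosome.

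**Figure D3:**
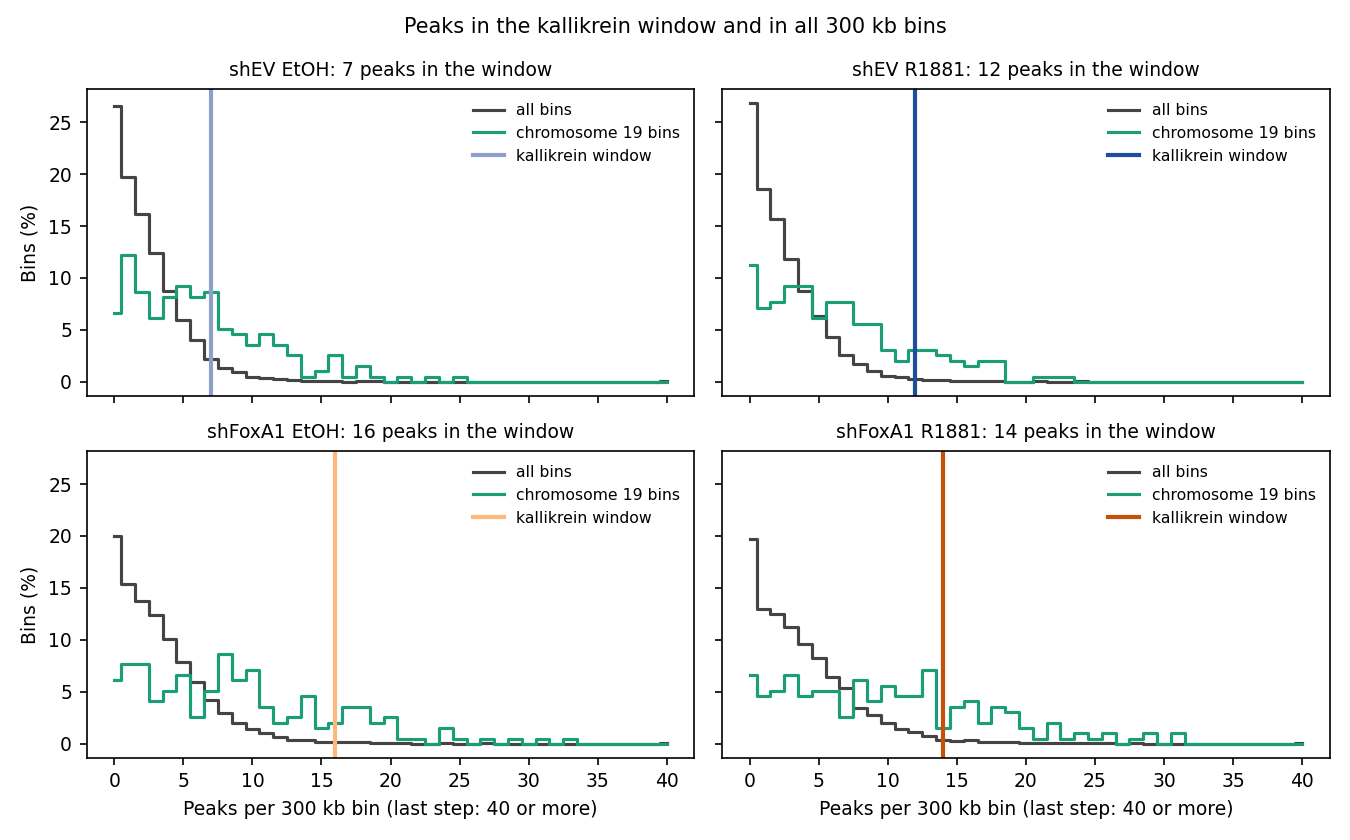
Number of peaks per 300 kb bin (horizontal axis) against the percentage of bins (vertical axis), for all bins and for chromosome 19, in 1 panel per library. The vertical line is the kallikrein window, with 7, 12, 16 and 14 peaks; it lies in the tail of all bins but within the bulk or shoulder of the chromosome 19 bins.

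The kallikrein peaks ranked near the middle of their lists except in shFoxA1 EtOH, where they ranked lower. Their median peak was above 50.9% and 56.3% of the list in shEV, and 32.3% and 49.1% in shFoxA1. They were richer in G and C than the whole lists, and other peaks of chromosome 19 were not compared. Median scores were 67 with EtOH and 76 with R1881 in shEV, and 49 and 65.5 in shFoxA1, where all peaks of the lists had 58, 58, 66 and 65. Median GC content was 54.8%, 46.7%, 52.7% and 51.6%, against 42.6%, 42.5%, 44.9% and 44.8% for the lists. Repeats held 5 of 7, 6 of 12, 7 of 16 and 6 of 14 of the kallikrein peaks, and 70.6%, 68.6%, 63.3% and 62.0% of all peaks.

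The first comparison asks which kallikrein peaks appear or disappear when cells with the empty vector receive androgen. A gained peak has no overlap of at least 1 bp in the other list, and a lost peak is the reverse. Gained peaks lay upstream of KLK3 at its enhancer, in KLKP1, in KLK4, in KLK5, near LINC01869 and near SNORD88C, and the lost peak lay upstream of KLK15. That is 6 of the 12 peaks of shEV R1881 gained, 50% (exact 95% interval 21.1 to 78.9), where 45.0% of all its peaks were gained. Of the 7 peaks of shEV EtOH 1 was lost, 14.3% (0.361 to 57.9), where 42.6% of all were. Both intervals, which cover counting error only, include the share of the whole list. They take neighbouring peaks of 1 library as independent and are wide. Including the share therefore does not show that the cluster behaves like its list. The enhancer and KLKP1 peaks, with scores of 135 and 146, were the highest-scoring of those gained, and the median was 50.5 against 90 for the shared ones.

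With the FoxA1 hairpin, the peaks gained after the same treatment lay at other positions in the full lists. Gained peaks lay at the KLK2 promoter, past the end of KLK3, upstream of KLK15, in KLKP1 and near KLK13, making 5 of 14 or 35.7% (12.8 to 64.9), where 44.5% of all shFoxA1 R1881 peaks were gained. The 7 lost of 16, 43.8% (19.8 to 70.1), where 37.5% of all were lost, lay near SNORD88C (2), KLK15, KLK3, KLK4 (2) and KLK5. The KLK2 promoter peak had the highest score of those gained, at 74, and the KLK5 peak that of those lost, at 103. The enhancer region and the KLKP1 region also called in shEV R1881 were not gained, because shFoxA1 EtOH already had a peak at each. The gained KLKP1 peak was the further peak of that gene, with a score of 34 in shFoxA1 R1881. No region of the cluster was present in both R1881 lists and absent from both EtOH lists, a pattern held by 5.27% of all regions.

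**Figure D4:**
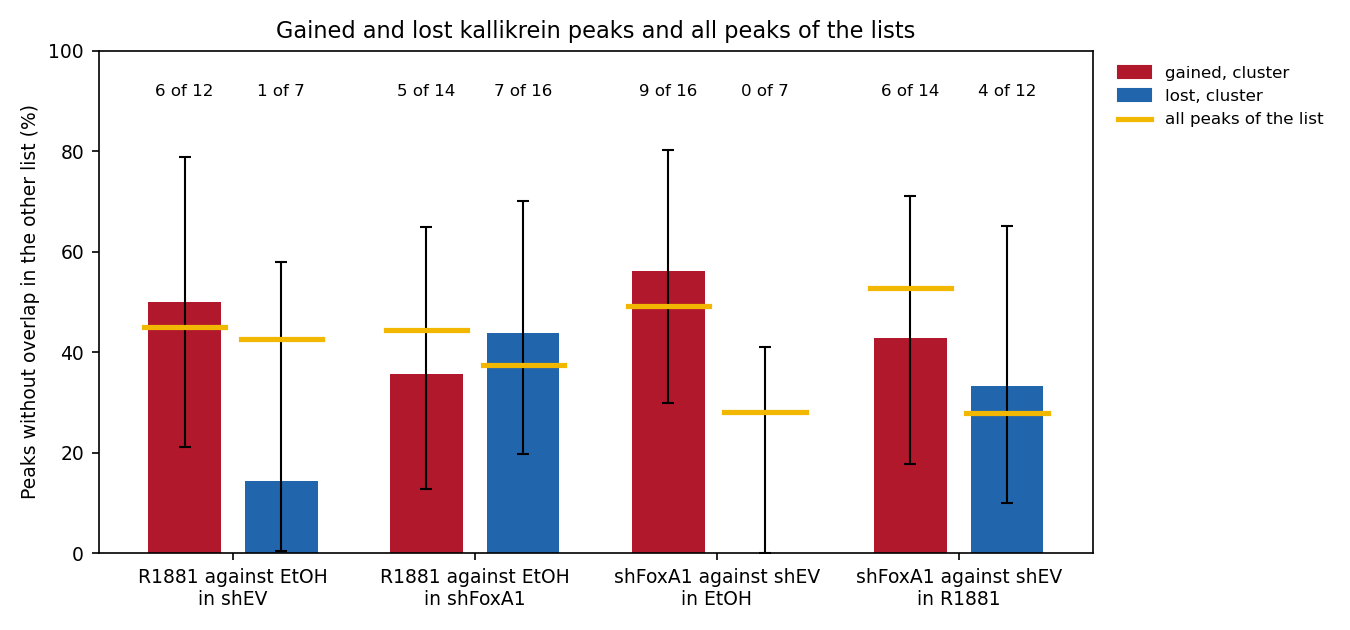
Percentage of kallikrein peaks without overlap in the other list (vertical axis) for 4 pairs of libraries, with gained peaks in red and lost peaks in blue, exact 95% intervals as error bars and numbers of peaks above; yellow lines give the share over all peaks of the list. Every interval includes its yellow line, from 0 of 7 against 28.0% to 9 of 16 against 49.2%. The intervals are wide and take neighbouring peaks as independent.

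The third comparison asks what the FoxA1 hairpin changes without androgen. All 7 kallikrein peaks of shEV EtOH were also called in shFoxA1 EtOH, so 0 of 7 were lost (exact 95% upper bound 41.0%), where 28.0% of all were. In the other direction 9 of 16 peaks, 56.2% (29.9 to 80.2), were found with the FoxA1 hairpin alone, where 49.2% of all were. Those lay at the KLK3 enhancer and elsewhere upstream of KLK3, upstream of KLK15, in and near KLK4 (2), in KLKP1, near LINC01869 and near SNORD88C (2). Their median score was 42 and that of the shared peaks 103. This comparison and the androgen comparison in shEV share the shEV EtOH library, the shortest list, so a peak it lacks counts as gained in both.

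With androgen, 6 of the 14 shFoxA1 R1881 peaks, 42.9% (17.7 to 71.1), had no counterpart in shEV R1881, where 52.8% of all did not. They were those at the KLK2 promoter, past the end of KLK3, upstream of KLK15 (2), in KLKP1 and near KLK13. Lost were 4 of 12, 33.3% (9.92 to 65.1), where 27.9% of all were: those near SNORD88C, in KLK4 and at KLK5 (2). The MLT1L peak near KLK5, with a score of 146 in shEV R1881, was the strongest of these. Again both intervals include the share of the whole list, with the same limits.

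Over all 4 lists, 5 of the 22 regions had a peak in every library, where 11634 of the 61118 regions of all lists, 19%, did. These were the pair upstream of KLK3, the KLK4 upstream region, the KLK14 region and the C19orf48 promoter. A further 3 regions were called in all lists but shEV EtOH, namely the KLK3 enhancer, the KLKP1 intron and the LINC01869 region; 4.37% of all regions had that pattern. Exactly 1 list held 9 of the regions, 5 of them in shFoxA1 R1881, 3 in shFoxA1 EtOH, 1 in shEV R1881 and 0 in shEV EtOH. That is 40.9% of the cluster's regions, where 48.1% of all regions were in exactly 1 list, 19.7%, 14.7%, 7.23% and 6.53% of all regions being in those respective lists alone.

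Many other genes had the same numbers of assigned peaks. The counts of KLK3 were 1 with EtOH and 2 with R1881 in shEV, and 3 and 3 in shFoxA1, and 26 other genes had identical counts. Those with the highest-scoring peak in shFoxA1 R1881 were LINC02148 (949), PNPLA6 (537), STOX2 (466), PDZRN3 (358) and BTD (294). The counts of KLK2, 0, 0, 0 and 1, were shared by 1528 genes, led by MIR6724-4 (2955), POC1B-AS1 (1332), FMC1 (1030), SNAR-A10 (425) and CCT3 (398).

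Androgen-induced genes outside the cluster, a list of 35 chosen with earlier results of these data known, are set beside the kallikreins here. In shEV, 26 of them had a gained peak and 12 a lost one with R1881, and 3 and 1 of the 10 member genes did; over coding genes the shares were 21.1% gained and 19.2% lost. With the FoxA1 hairpin the numbers were 32 and 13 of 35, and 3 and 4 of 10, beside 29.3% and 23.1% of coding genes. In shEV most peaks were gained at SLC38A2 (5), LIFR, NEDD4L and TPD52 (4 each), and in shFoxA1 at TPD52 (9), NEDD4L (8) and ZBTB16 (6). Some of these also lost peaks, NEDD4L and TPD52 3 each in shEV, and NEDD4L 6, TPD52 2 and ZBTB16 1 in shFoxA1. KLK3 gained 1 peak in each hairpin line, at the enhancer in shEV and past the gene end in shFoxA1, and KLK2 gained 0 and 1. In shFoxA1 KLK3 also lost 1 peak, at -7774 bp, and had 3 peaks in each of the EtOH and R1881 lists.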

How the data were processed

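Peak lists of 4 mTOR immunoprecipitated libraries were used, 1 per group. Per the submitters' processing notes, the upstream tools were HOMER 4.11.1, MACS2, BWA 0.7.12, deepTools 3.5.0, Trimmomatic 0.36 and Picard 2.0.1, on hg38. Per the file headers, each list is HOMER peak annotation of peaks called in 1 library; the sources used here name neither control nor threshold. The deposited peak score is the authors' and its definition is not given, so it was ranked within a list only. The deposited GC fraction is printed as a percentage. Depth is unknown.

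Peaks on chromosomes 1 to 22, X and Y were compared by overlap of at least 1 bp and merged into regions with Python 3.11.15 and pandas 2.3.3; intervals are Clopper-Pearson (scipy 1.17.1). Overlap code was tested on simulated data. Coordinates count from 1: the GC fraction times end minus start plus 1 was whole (within 0.002) for at least 99.9% of peaks. Gene positions and promoters are RefSeq GRCh38.p14; genes were matched by symbol or Entrez identifier, and all 35 androgen-induced symbols matched. Members and lists were chosen with earlier results of these data known. Genes named are all members, the 5 with peak counts nearest to those of KLK3 and of KLK2, and the 3 androgen-induced genes with most gained peaks per hairpin line, ties included. Alternatives tried were the 10000 highest-scoring peaks of each list, a 50% overlap, coordinates alone, peaks outside repeats and, added after seeing the data, a 500 bp tolerance.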

Additional observations from a re-analysis of the deposited data

Results flagged for a closer look

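The number of kallikrein peaks moved in opposite directions with R1881 in the hairpin lines. With R1881 the window had 5 peaks more in shEV (12 against 7) and a change of -2 in shFoxA1 (14 against 16), a difference between the changes of -7. The whole lists were longer with R1881 in both lines, by 1126 and 4449 peaks. With each list limited to its 10000 highest-scoring peaks the number was higher with R1881 in both lines, 6 against 3 in shEV and 5 against 3 in shFoxA1, so the opposite direction was not kept. The shFoxA1 counts and the shEV EtOH count depend on tied scores at the limit. In shFoxA1 a KLKP1 peak with R1881 (score 112) stayed in and a KLK5 peak with EtOH (score 103) did not. The higher number with R1881 in shFoxA1 thus rests on the order of ties. In shEV EtOH the peak of the widest region (score 76) stayed in. KLK4 had a change of 1 peak in shEV and -2 in shFoxA1 (difference -3), and KLK5 a change of 1 and -1 (difference -2). KLK4 also differed in its change with the FoxA1 hairpin, which was 2 peaks in EtOH and -1 in R1881 (difference -3). These values rest on 1 library per group, the differences were not tested, and the peaks of KLK4 that came and went had scores of 20 to 34.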

How the results depend on the processing

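Membership by coordinates alone could not change any of the 15 counts recomputed, because every member peak lay inside the window. The 11 counts of gained, lost and merged peaks were recomputed with a required overlap of 50% of the shorter peak. A tolerance of 500 bp was added after seeing the data. Under both of these settings all 11 stayed within 1.5 times their value. The threshold of the lists mattered most. With each list limited to its 10000 highest-scoring peaks, the window held 3 peaks with EtOH and 6 with R1881 in shEV, and 3 and 5 in shFoxA1. With R1881, 3 were then gained and 0 lost in shEV, and 2 gained and 0 lost in shFoxA1. With the FoxA1 hairpin, 1 was gained and 1 lost in EtOH, and 1 gained and 2 lost in R1881. There were 7 merged regions, 2 of them in all 4 lists, and 1 called with R1881 in both lines and without it in neither, where none had been before: the KLKP1 intron region. Its shFoxA1 R1881 score of 112 is the lowest kept, a score at which 957 of 1107 tied peaks stayed in, by position. At the lowest scores kept with EtOH, 76 in shEV and 103 in shFoxA1, 728 of 1359 and 376 of 1129 tied peaks stayed in. The shEV EtOH peak of the widest region (76) stayed in and the shFoxA1 EtOH peak near KLK5 (103) did not. Counts that involve these peaks depend on the order of ties. Both shFoxA1 peaks at the KLK3 enhancer, the KLK2 promoter peak and all promoter peaks of the window dropped out.

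Without peaks annotated to repeats, 2, 6, 9 and 8 peaks remained in shEV EtOH, shEV R1881, shFoxA1 EtOH and shFoxA1 R1881. In shFoxA1, 3 were then gained and 4 lost with R1881. There were 13 merged regions, 1 of them in all 4 lists. The other counts without repeats stayed within 1.5 times, but some include peaks whose repeat label differed between lists. The KLK4 upstream region, outside a repeat in shEV R1881 alone, then counted as gained with R1881 in shEV. It also counted as lost with the FoxA1 hairpin in R1881. The KLK3 enhancer region, in a repeat in shEV R1881 alone, counted as gained with that hairpin in R1881. In the full lists these peaks overlapped. No paired analysis was possible because each group has 1 library and no test was made. Unknown depth limits every absence: a peak not called may lie below the threshold.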

Other observations

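Just outside the left edge of the window, a broad region was called with R1881 in both lines and without it in neither, a pattern that no region of the kallikrein window had. Of all regions, 5.27% had that pattern, and this one was chosen after its values were seen. The peaks, nearest to SNORD88B and overlapping the end of the acid phosphatase gene ACP4, spanned chr19:50794183-50795916 in shEV R1881 (score 95) and chr19:50794344-50795916 in shFoxA1 R1881 (score 102). In the EtOH lists the nearest peaks to its left lay near GPR32 (score 42 in each). Those to its right were closer. They began at chr19:50804563 in shEV EtOH (score 67) and at chr19:50801075 in shFoxA1 EtOH (score 49).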
